A study of Mus musculus with 2 samples.

Results

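The subject here is a set of 5 mouse miRNA genes known from blood vessels: Mir126a, Mir126b, Mir143, Mir145a and Mir145b. They were chosen by gene symbol, not by level, and are 5 of the 2202 miRNA genes in the deposited tables. The tables come from microRNA-seq, the sequencing of RNA shorter than 30 nucleotides, on left cerebral cortex tissue from 2 females of the strain B6CASTF1/J, aged 2 months. Mice of this strain are F1 offspring of C57BL and CAST parents, the second of wild origin, and no treatment or genotype was compared. Both mice form a single group with 1 library per mouse, named animal 1 and animal 2 after the biological replicate numbers. The labels number the mice separately, as female 03 and female 04, but give both the same donor identifier. Animal 1 had 4415759 reads counted at miRNA genes and animal 2 had 2279562. Levels are given as CPM, the count of a gene per 1000000 reads counted at all miRNA genes. Values are mean ± SD over the animals (n = 2) unless a single animal is named.

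A miRNA is cut from a hairpin-shaped precursor and guides a silencing complex to messenger RNAs that pair with its seed, bases 2 to 8 of the mature strand. Mir126a lies in Egfl7, a gene for a secreted protein of endothelial cells, and miR-126 is known as an endothelial miRNA that keeps vessels intact and shapes their response to VEGF. Platelets and blood stem cells also carry it. Mir143 and Mir145a have separate hairpins, known to lie on a shared longer transcript. They are made in vascular smooth muscle and pericytes, the mural cells around vessels, where they favour the contractile state. Mir126b is annotated on the strand opposite Mir126a. Mir145b is a separate gene whose hairpin shares a run of 17 bases with that of Mir145a. The tissue was not sorted and the tables hold no messenger RNA, so the cells that made these miRNAs were not measured. In bulk tissue, fewer cells of a type and less RNA per cell cannot be told apart.

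The sequences of the Mir126 locus are shown because 2 of the 5 genes are the same stretch of DNA read on opposite strands, which decides how reads there were counted. They are from RefSeq on GRCm38.p6, whose sequence table gave an entry for 2 of the 5 genes. In the mature forms the capitals mark the seed.
miR-126a-3p: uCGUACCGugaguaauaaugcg
miR-126b-5p: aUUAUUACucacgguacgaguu
miR-126b-3p: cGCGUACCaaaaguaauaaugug
In the hairpins the capitals mark the mature forms just listed. The table gave no entry for miR-126a-5p, and that arm of the Mir126a hairpin is left in lower case.
Mir126a hairpin: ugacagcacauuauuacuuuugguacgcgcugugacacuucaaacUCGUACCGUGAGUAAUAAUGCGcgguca
Mir126b hairpin: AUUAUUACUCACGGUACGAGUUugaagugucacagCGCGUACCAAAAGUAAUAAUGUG

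The Mir126b hairpin of 58 bases is the exact reverse complement of the middle of the 73-base Mir126a hairpin, which runs 6 bases further at its 5′ end and 9 bases further at its 3′ end. Mature miR-126a-3p and miR-126b-5p cover 19 positions in common and are exact reverse complements there. The last 3 bases of miR-126a-3p lie beyond the Mir126b hairpin. The seeds of the 3 mature forms are different from each other. Those of miR-126a-3p and miR-126b-3p nevertheless share the run CGUACC at shifted positions. None of the 3 seeds was found in another of the 1738 mature miRNAs of the RefSeq table.

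Mir126a lies within a host gene on its own strand, while Mir143 and Mir145a have a host only in the RefSeq annotation. Positions are on mm10 with the GENCODE M21 annotation. Mir126a (ENSMUSG00000065540.1) occupies 26591357 to 26591429 on the plus strand of chromosome 2. Of 19 annotated Egfl7 transcripts 9 span it, 8 with the hairpin in an intron and 1 with it in an exon. It also lies in an intron of Gm20532, a gene model of 1 transcript that overlaps Egfl7. Mir126b (ENSMUSG00000105799.1) occupies 26591363 to 26591420 on the minus strand, opposite these hosts. On the minus strand of chromosome 18, Mir143 (ENSMUSG00000065445.3) occupies 61649196 to 61649258 and Mir145a (ENSMUSG00000065592.2) occupies 61647825 to 61647894. A gap of 1301 bases separates them. The long noncoding RNA Carmn, on the same strand, ends 366 bases before Mir143 in GENCODE M21. In RefSeq on GRCm38.p6 Carmn runs from 61645878 to 61665538 and so covers both hairpins, and the annotation used decides whether they have a host. Mir145b (ENSMUSG00000098366.1) occupies 69022199 to 69022273 on the same strand of that chromosome, 7372940 bases from Mir143, with no host in GENCODE M21 and inside the noncoding gene model Gm31088 in RefSeq.

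The cortex libraries held many reads of Mir126a and Mir143, far fewer of Mir145a, and none of Mir126b or Mir145b on their own strands. How evenly library preparation captured different miRNAs was not measured, so comparisons between miRNAs are comparisons of reads and not of molecules. Mir126a, the endothelial miRNA, had 29419 reads in animal 1 and 22173 in animal 2, or 6662 and 9727 CPM. Its mean was 8195 ± 2167 CPM. Mir143, the more abundant of the smooth muscle miRNAs, had 20270 reads in animal 1 and 11667 in animal 2, or 4590 and 5118 CPM. Its mean was 4854 ± 373 CPM, so Mir126a lay above it in both animals and the ranges did not overlap. Mir145a, its neighbour, had 956 and 707 reads, or 216 and 310 CPM, with a mean of 263 ± 66.2 CPM. All of its values lay below those of the other detected members.

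Mir126b and Mir145b had 0 reads in both animals. A count of 0 allows a true level of up to 3 counts, or 0.679 CPM in animal 1 and 1.32 CPM in animal 2. Against that floor in each library, animal 1 had at least 9806-fold higher Mir126a than Mir126b, and animal 2 at least 7391-fold higher. Mir145a exceeded Mir145b at least 319-fold in animal 1 and at least 236-fold in animal 2. Bounds and intervals reflect the counting error of reads alone. Reads copied by PCR do not stand for separate molecules, and copies cannot be told apart in these counts. The error for molecules may therefore be larger and the bounds less firm.

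**Figure D1:**
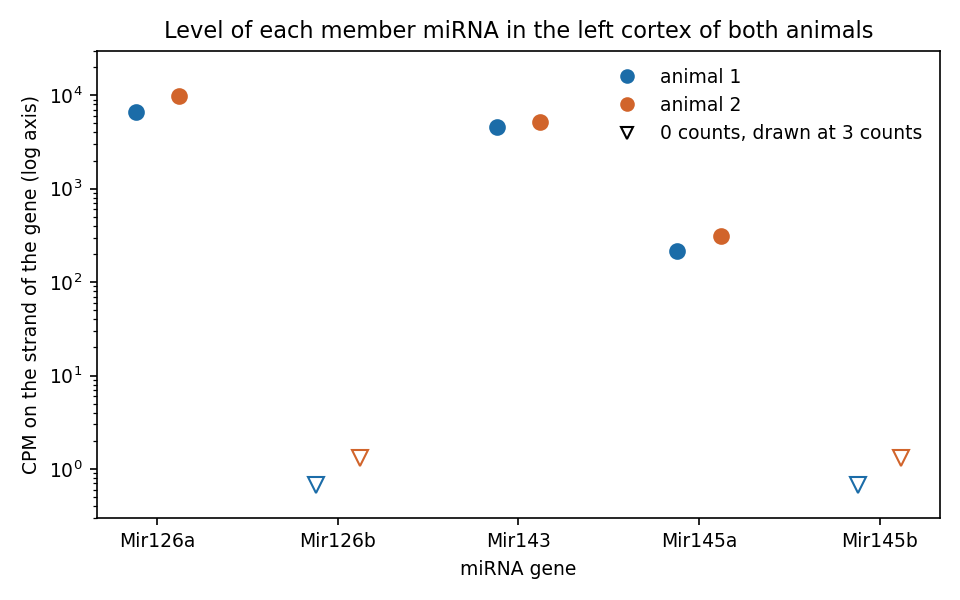
CPM on the strand of the gene (log axis) for each of the 5 miRNA genes in animal 1 (blue) and animal 2 (orange), with exact 95% counting intervals mostly smaller than the points and open triangles for 0 counts drawn at the floor of 3 counts. Mir126a at 6662 and 9727 CPM and Mir143 at 4590 and 5118 CPM stand well above Mir145a at 216 and 310 CPM.

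Detection was set at 2 CPM in both animals, which 18.8% of the 2202 genes reached. Of the 5 members, 3 reached it. The share of counts taken by all members was 1.15% in animal 1, with an exact 95% interval of 1.14 to 1.16%. In animal 2 it was 1.52%, with an interval of 1.50 to 1.53%, and the mean was 1.33 ± 0.261%. Mir126a alone held 0.666% and 0.973%. A read of a mature miRNA covers the whole molecule, so CPM was not divided by length. Per base of annotated hairpin the order of the members was the same, with Mir126a at 91.3 and 133 CPM per base, Mir143 at 72.9 and 81.2 and Mir145a at 3.09 and 4.43.

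Among all 2202 genes Mir126a ranked 25th by mean CPM, Mir143 ranked 38th and Mir145a ranked 156th. Mir126a was 29th in animal 1 and 22nd in animal 2. Mir143 held nearly the same place in both, 37th and 36th. Mir145a was 161st and 149th. Of the 415 detected genes, 94.0% had a lower mean than Mir126a, 90.8% a lower mean than Mir143 and 62.4% a lower mean than Mir145a.

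The places next to each member were not separated by more than the animals differed. Next above Mir126a came Mir30d at 8369 ± 11.8 CPM and Mir23a at 8343 ± 3021 CPM, and next below it Mir92b at 8061 ± 448 CPM and Mir324 at 7303 ± 184 CPM. All 4 had values within or across the range of Mir126a. Around Mir143 stood Mir485 at 5032 ± 689 CPM, Mir26b at 4903 ± 1704 CPM, Mir342 at 4820 ± 500 CPM and Mir138-1 at 4677 ± 492 CPM. Around Mir145a stood Mir16-1 at 277 ± 52.6 CPM, Mir339 at 277 ± 48.0 CPM, Mir106b at 262 ± 13.5 CPM and Mir375 at 254 ± 45.3 CPM. These neighbours overlapped their member as well. In all, 13 genes overlapped the range of Mir126a, 12 that of Mir143 and 27 that of Mir145a. With 2 libraries of 1 tissue no likeness of pattern across samples could be measured, so nearness in level is the only likeness given.

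**Figure D2:**
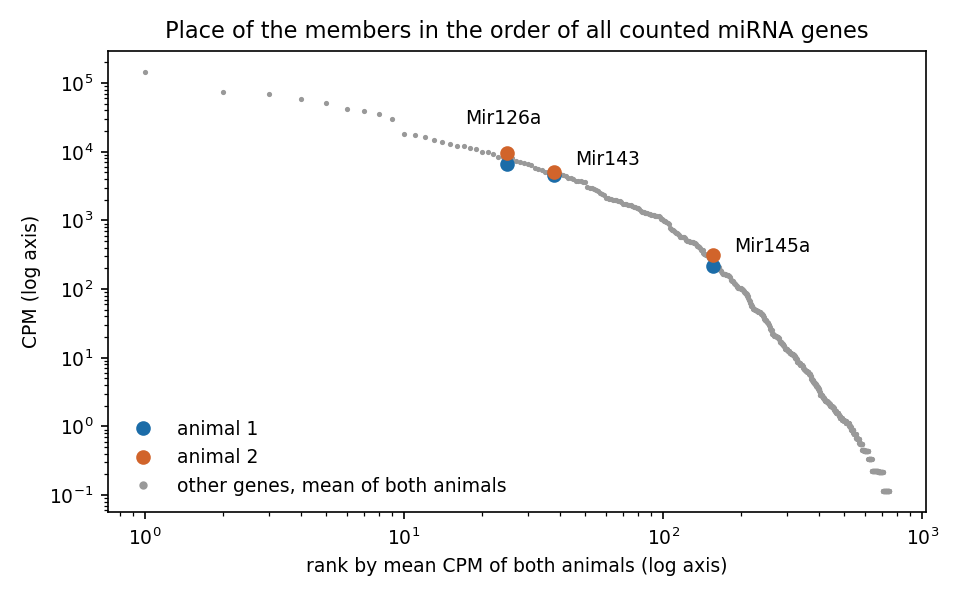
CPM (log axis) against rank by mean CPM (log axis) for all miRNA genes with a read, in grey, with Mir126a, Mir143 and Mir145a in animal 1 (blue) and animal 2 (orange). Mir126a at rank 25 and Mir143 at rank 38 lie on the upper slope of the curve, and Mir145a at rank 156 lies lower on it.

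Mir143 and Mir145a, whose separate hairpins are known to lie on a shared longer transcript, were counted at very unequal levels. Mir143 had 21.2 reads for each read of Mir145a in animal 1 (exact binomial 95% interval 19.9 to 22.6) and 16.5 in animal 2 (15.3 to 17.8). The intervals did not overlap. As a percentage of the Mir143 count, Mir145a was 4.72% in animal 1 and 6.06% in animal 2, or 5.39 ± 0.95%. These ratios are taken within a library and do not depend on its total.

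Unequal counts were found at other neighbouring miRNA genes too. The comparison was chosen after the values were seen and took every other pair of adjacent same-strand miRNA genes within 10000 bases, both detected, which gave 87 pairs. Of these, 29 (33.3%) had a ratio of the higher to the lower gene as large as the mean of 18.9 for Mir143 over Mir145a. Reads of a gene whose hairpin shares 18 bases or more with a hairpin elsewhere may map to several places. Reads that did so were set aside in a summary entry apart from the counts at genes. In 56 of the pairs neither gene shares such a run, as is true of Mir143 and Mir145a. Among these the median ratio was 6.72, and 14 (25.0%) reached 18.9. Genes in a run of neighbours recur in several pairs, so the pairs are not independent of each other. The log2 of the Mir143 to Mir145a ratio differed by 0.36 between animal 1 and animal 2, and 31 of the 56 pairs (55.4%) differed by as much or more. Mir221 and Mir222, another pair known from endothelium and smooth muscle, had a ratio of 3.71 in animal 1 and 1.80 in animal 2. Mir195a and Mir497 had 1.25 and 1.43. Among pairs on the endothelial list given below, Mir17 and Mir18 had 17.75 and 31.0. Mir23a and Mir27a had 118 and 46.7, and Mir27a and Mir24-2 had 1.47 and 3.56. The hairpins of Mir23a, Mir27a and Mir24-2 share 18 bases or more with a hairpin elsewhere.

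For each Mir143 read, Mir126a had 1.45 reads in animal 1 (1.43 to 1.48) and 1.90 in animal 2 (1.86 to 1.94). Its excess over Mir143 was therefore larger in animal 2. Mir126a had 30.8 reads for each Mir145a read in animal 1 (28.9 to 32.9) and 31.4 in animal 2 (29.1 to 33.8). Those intervals overlapped.

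How reads were assigned to a strand decided whether Mir126a was seen at all. Counted without regard to strand, Mir126a had 3 reads in animal 1 and 1 in animal 2, against 29419 and 22173 on its own strand. Its unstranded level was 0.725 and 0.470 CPM. Opposite it, Mir126b had 29416 and 22172 reads in the column for the opposite strand, equal to the Mir126a counts less 3 and less 1. Those reads run along the Mir126a strand and are not reads of Mir126b. The reads that Mir126a lost without strand equalled 10.5% of all reads set aside as ambiguous in animal 1 and 14.8% in animal 2. Mir143 and Mir145a had no gene opposite them, their unstranded counts equalled their own-strand counts, and their opposite-strand counts were 0.

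**Figure D3:**
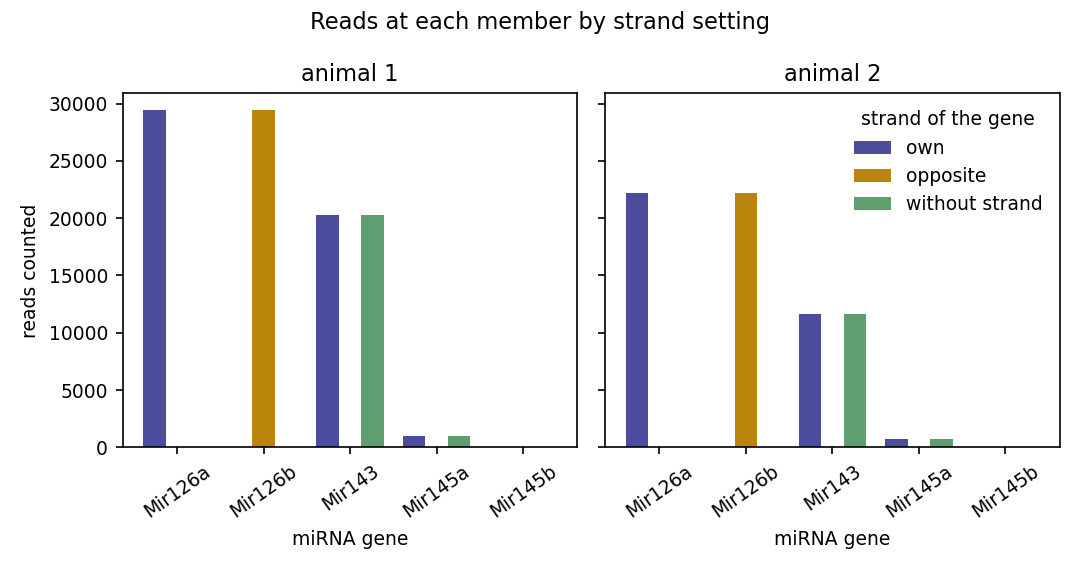
Reads counted at each member on its own strand, on the opposite strand and without regard to strand, with a panel for each animal. The bars of Mir126a on its own strand (29419 and 22173 reads) return as opposite-strand bars at Mir126b (29416 and 22172), while Mir143 and Mir145a have equal bars with and without strand.

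Mir126a shared this with other genes. In the annotation, 64 miRNA genes (2.91% of all) overlap another miRNA gene on the opposite strand, in 32 pairs. Of the 29 such genes detected on their own strand, 28 (96.6%) fell below 2 CPM in both animals without strand. By own-strand reads the Mir126a pair ranked 3rd of the 32 in both animals, after Mirlet7e opposite Gm25927 and Mir191 opposite Gm24083. The other 7 pairs led by a gene at 1000 CPM or more were those of Mir378a, Mir30e, Mir129-2, Mir409, Mir337, Mir338 and Mir219a-2.

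None of the 5 hairpins shared 18 bases or more with the hairpin of a miRNA gene elsewhere, on either strand. Among all 2202 genes, 51.5% did. The longest shared run was 12 bases for Mir126a and Mir126b, 11 for Mir143 and 17 for Mir145a and Mir145b. The 17-base run of Mir145a and Mir145b is the one these genes have in common. Reads that mapped to several places were 37.4% of all reads in animal 1 and 25.5% in animal 2. They were set aside in a summary entry of their own, apart from the counts at genes. The share of all reads counted at genes was also lower in animal 2, at 22.5% against 32.6% in animal 1.

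All 3 detected members were 1.11-fold to 1.46-fold higher in animal 2. These differences exceeded counting error, as did a higher level in animal 2 at 29.6% of the 415 detected genes. Differences between animals are log2 ratios of CPM, animal 1 over animal 2, with an exact 95% counting interval. A gene was called outside counting error where that interval left out 0. Mir126a had a log2 ratio of -0.55 (-0.57 to -0.52), a level 1.46-fold higher in animal 2. Mir145a had -0.52 (-0.66 to -0.38), or 1.43-fold higher in animal 2. Mir143 had -0.16 (-0.19 to -0.12), or 1.11-fold higher in animal 2. Its interval did not reach those of the other members.

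These calls were frequent among all genes. Of the 415 detected genes, 56.6% lay outside counting error, 27.0% higher in animal 1 and 29.6% higher in animal 2. Of the 200 detected genes at a mean of 100 CPM or more, 85.0% lay outside and 46.0% were higher in animal 2. A log2 ratio beyond 1 in either direction was found at 13.5% of detected genes and at no member. An absolute log2 ratio as large as that of Mir126a was found at 32.5% of detected genes, as large as that of Mir145a at 34.7% and as large as that of Mir143 at 74.9%. The median absolute log2 ratio was 0.34. Each animal gave 1 library, so animal and library preparation cannot be told apart, and no p-value was computed.

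**Figure D4:**
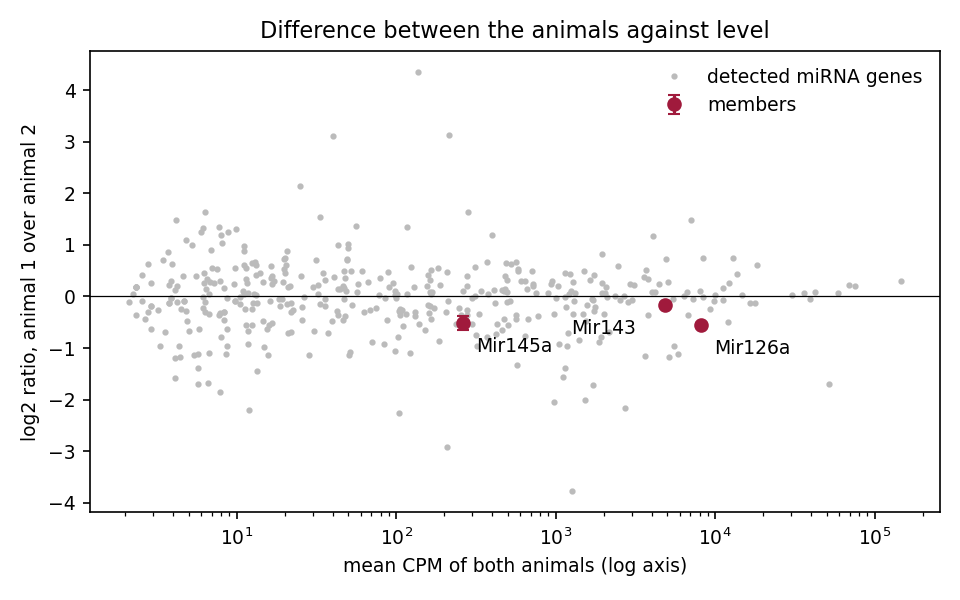
Log2 ratio of CPM, animal 1 over animal 2, against mean CPM (log axis) for the 415 detected miRNA genes (grey) and the 3 detected members (red, with exact 95% counting intervals). Mir126a at -0.55, Mir145a at -0.52 and Mir143 at -0.16 lie below 0 and inside the spread of the other genes.

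Other miRNAs known from the vessel wall did not all go the way of the members. The endothelial list held 16 other miRNAs, of which 14 were detected, against 18.8% of all 2202 genes. Of the 14, 5 were beyond counting error with the higher level in animal 1, 5 in animal 2, and 4 were not beyond it. Among all 415 detected genes, 27.0% were higher in animal 1 and 29.6% in animal 2. The 4 most abundant of the list were Mir23a, which acts in vessel growth, Mir221 and Mir222, which limit endothelial migration, and Mir130a. Mir23a had 10479 CPM in animal 1, against 6206 CPM in animal 2, a log2 ratio of 0.76 and opposite in sign to Mir126a. Its hairpin also shares 18 bases or more with another. Mir221 had 3716 CPM in animal 1, against 8045 CPM in animal 2. Mir222 had 1002 and 4464 CPM. Their ratios of -1.11 and -2.15 shared the sign of Mir126a and were larger. Mir130a had 1010 and 855 CPM. The list summed to 18343 CPM in animal 1, against 21765 CPM in animal 2, and its log2 ratios ran from -2.15 to 1.19. These miRNAs are also made in other cells of the brain, so their levels do not measure endothelium.

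The list of other mural and fibroblast miRNAs held 9 genes. Of these 6 were detected, 2 were higher in animal 1 and 3 were higher in animal 2. Over all genes 18.8% were detected, and of those 27.0% were higher in animal 1 and 29.6% in animal 2. The leading gene of the list, Mir22, made in muscle and many other cells, had 2266 CPM in animal 1, against 5041 CPM in animal 2. Mir21a, abundant in fibroblasts and reactive cells, had 376 and 1562 CPM. Mir195a and its neighbour Mir497 went the other way, with 1038 and 846 CPM for Mir195a and 831 and 591 CPM for Mir497. Mir214, of the mesenchymal Mir199a and Mir214 cluster, had 49.4 and 90.8 CPM. Its cluster partner Mir199a-2 had 1 read in animal 1 and 0 in animal 2, and Mir199a-1 and Mir199b had 0 in both. The hairpins of these 3 genes share 18 bases or more with another hairpin, so a low level cannot be read from these counts. Mir143 was above the 6 detected genes of the list by mean CPM, though Mir22 at 5041 CPM came close to it in animal 2. Mir199a-1, Mir199a-2 and Mir199b cannot be placed against it.

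**Figure D5:**
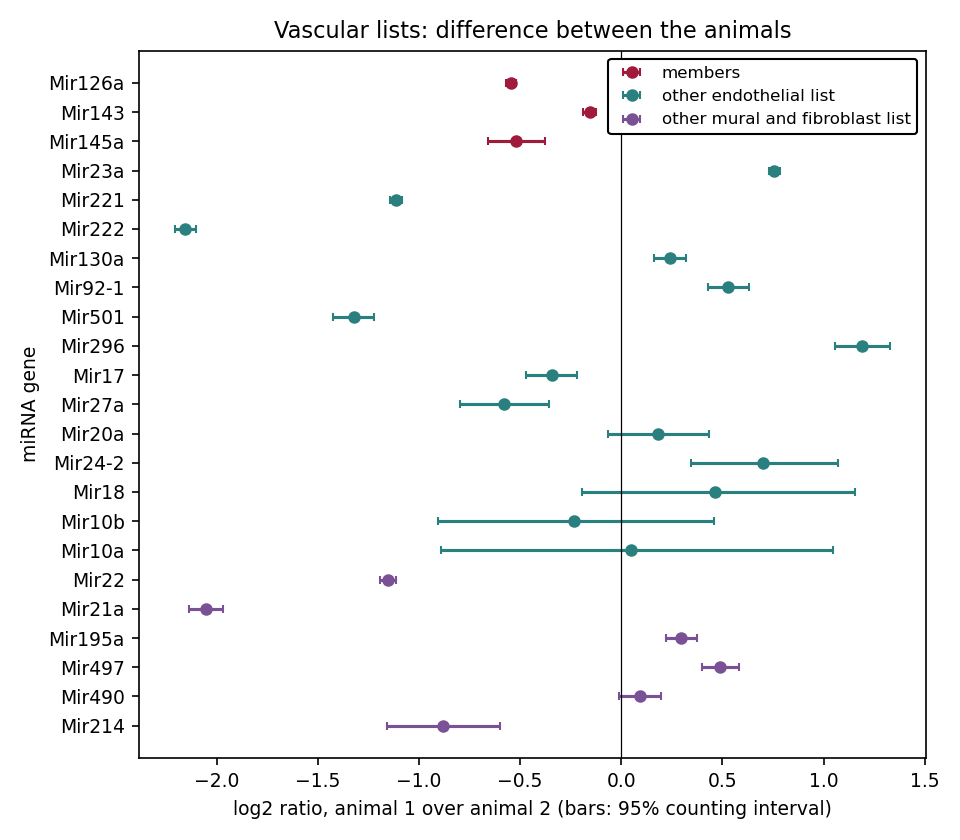
Log2 ratio of CPM, animal 1 over animal 2, with exact 95% counting intervals for the detected members (red), the other endothelial list (teal) and the other mural and fibroblast list (purple). The 3 members lie between -0.55 and -0.16, while the other lists spread on both sides of 0.

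Markers of muscle and blood were compared with the members because these cells could contribute the same miRNAs. The striated muscle list had 2 of 10 genes detected and 6 at 0 in both animals, where 18.8% of all 2202 genes were detected. Its sum was 31.5 CPM in animal 1, against 21.1 CPM in animal 2. Its highest genes were Mir206 at 19.9 ± 5.18 CPM and Mir499 at 4.15 ± 2.77 CPM, and Mir1b and Mir208a were below 2 CPM in both animals. Of the 6 at 0, 5 share 18 bases or more with another hairpin, among them Mir1a-1, Mir133a-1 and Mir133a-2, and no absence can be read from a count of 0 at such a gene. The part of striated muscle in the levels of Mir143 and Mir145a was not tested.

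Of the 3 red cell miRNAs, 2 were higher in animal 1, opposite to the members, as were 27.0% of the 415 detected genes. These 2, Mir451a and Mir144, are neighbours 99 bases apart. The list summed to 459 CPM in animal 1, against 91.2 CPM in animal 2, led by Mir451a at 385 and 43.9 CPM. Mir144 had 40.8 and 9.21 CPM, and Mir486 had 33.5 and 38.2 CPM. Mir486 did not differ beyond counting error. The part of red cells in the level of Mir126a was not tested.

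The 4 leukocyte and platelet miRNAs were all detected, against 18.8% of all 2202 genes. They had a sum of 1388 CPM in animal 1, against 1742 CPM in animal 2. Counting error was exceeded by 2 of them, both with the higher level in animal 2, a call made at 29.6% of the 415 detected genes. Mir150, known from lymphocytes, had 1319 and 1668 CPM. Mir223, a myeloid and platelet miRNA, had 12 and 20 reads, or 2.72 and 8.77 CPM. Mir142 had 31.7 and 35.1 CPM, and Mir155 had 34.9 and 29.8 CPM. The part of these cells in the level of Mir126a was not tested.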

How the data were processed

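The authors deposited, for each library, raw counts of reads per miRNA gene in 3 columns, without normalization. Build mm10 and annotation M21 are stated in the metadata deposited with the libraries; no source used here names the aligner, trimming or filters. The columns have no header. Their roles (without strand, strand of the gene, opposite strand) were read from the values, and 4 summary entries that name no gene were left out of totals. All 2202 identifiers matched GENCODE M21. CPM was the own-strand count over the library's gene total. Floors were 3 counts. Intervals were exact Clopper-Pearson 95%. With 1 group no test was run.

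Members and lists were chosen with earlier results of these data known. By rule, named genes were the members, at most the 4 highest of each list, and the 2 next above and below each detected member. Antisense-paired genes at 1000 CPM or more were added. Mir214, Mir199a-1, Mir199a-2, Mir199b, Mir1a-1, Mir133a-1 and Mir133a-2 were named after their values were seen or as markers. Mir17, Mir18, Mir27a and Mir24-2 were named after their values were seen. Mir497a was matched as Mir497 by its RefSeq synonym. Alternatives were edgeR 4.0.16 TMM factors, DESeq2 1.42.0 size factors, other totals, the unstranded column, other detection limits and leaving out either library. The interval code was checked on simulated counts. Python 3.11.15, scipy 1.17.1 and pandas 2.3.3 were used.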

Additional observations from a re-analysis of the deposited data

Results flagged for a closer look

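Reads appeared at Mir126b in a column not used for levels. Its opposite-strand column held 29416 reads in animal 1 and 22172 in animal 2, above the floor of 3 counts, while its own-strand count was 0 in both. The numbers equal the own-strand counts of Mir126a less 3 and less 1, and the reads run along the strand of Mir126a.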

How the results depend on the processing

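Counting without strand lowered Mir126a to a mean of 0.597 CPM and the members' share of counts to 0.547%, and turned its log2 ratio to 0.63 on 3 and 1 reads (-3.01 to 6.34); the loss follows from Mir126b lying opposite it. Leaving the most abundant gene out of the total raised all levels within a library alike, to means of 9571 CPM for Mir126a, 5683 CPM for Mir143 and 308 CPM for Mir145a. No member's ratio changed sign or came inside counting error with TMM factors, DESeq2 size factors, that total or all mapped reads as the total. Of the detected genes, 112 were higher in animal 1 and 123 in animal 2, against 123 and 116 with TMM factors and 129 and 108 with that total. Leaving out a library gave 6662 to 9727 CPM for Mir126a, 4590 to 5118 CPM for Mir143, 216 to 310 CPM for Mir145a, 4.72 to 6.06% for Mir145a over Mir143 and 1.15 to 1.52% for the members' share. Counting the list genes with 1 read or more gave 15 of 16 and 7 of 9. No paired analysis was possible because there is a single group. Depth limits Mir126b and Mir145b, whose absence cannot be told from a level under the floor.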
